A study of Mus musculus with 24 samples.

Results

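Immunoglobulin variable (V) segment genes were followed in bulk RNA sequencing of bone constructs in mice. They were chosen by name and by total count: genes whose symbol begins with Ighv, Igkv or Iglv followed by a digit, with at least 50 counts summed over the 24 samples. Of 51138 genes in the count table, 348 were V segments, 262 of these had any count, and 184 reached 50 counts. The 184 comprised 91 of 185 Ighv (heavy chain), 90 of 160 Igkv (kappa light chain) and 3 of 3 Iglv (lambda light chain) genes. The annotation class was a V gene for 183 of the 184 and a V pseudogene for Igkv4-77, which had 318 counts. Just outside the threshold lay Igkv8-18, Igkv3-3 and Ighv1-56 with 42, 44 and 45 counts, and just inside lay Ighv15-2, Ighv1-62-3 and Ighv1-62-2 with 65, 66 and 76. A further 78 V segments had between 1 and 49 counts, and 86 had 0.

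The hosts were Foxp3-DTR/eGFP mice of both sexes, 8 to 9 weeks old, which express the diphtheria toxin receptor under the Foxp3 promoter and so in regulatory T cells (Tregs). Each mouse carried subcutaneous constructs of biphasic calcium phosphate (BCP) granules on the back, collected after 2 weeks, and each of the 6 groups had 4 samples from individual animals. BCP contained 40 mg of granules without cells. BCP+MSC added 800000 bone marrow mesenchymal stem cells (MSCs). BCP+MSC+RvE1 used MSCs primed with resolvin E1 (RvE1, a lipid mediator that helps to end inflammation) at 10 nM, and BCP+MSC+Treg used MSCs cocultured with activated splenic Tregs. In the groups labelled (dep)BCP+MSC and, with RvE1 injection, (dep)BCP+MSC+RvE1inj, diphtheria toxin at 50 µg/kg was given to deplete Foxp3+ cells, and the latter also received 1 µM RvE1 by local injection. Of the (dep)BCP+MSC samples, the columns numbered 4 and 5 could be tied to the group but not to a labelled replicate. Constructs held both seeded and infiltrating host cells, and B lineage cells were not sorted.

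An antibody V domain is encoded by a V segment joined to a J segment (and, in heavy chains, a D segment between them) in each developing B cell. A B cell and its progeny normally keep 1 functional heavy and 1 functional light chain rearrangement, so V segment use in a tissue reflects which B cell and plasma cell clones are there and how much antibody mRNA each makes. The joined V region is spliced to a constant gene, such as Ighm for IgM, Ighg3 for IgG3 or Igkc for the kappa chain. Plasma cells carry far more of this mRNA than resting B cells. In bulk tissue, fewer cells of a type and less RNA per cell cannot be told apart.

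The segments on which the results turn are shown by the last 120 bases of their reference transcripts, 5′ to 3′, from GENCODE M21 on GRCm38. Capitals mark the stretch from the codon of the conserved cysteine to the 3′ end, which is the germline start of the third hypervariable loop. The first pair, which led the kappa and heavy segments by mean CPM, was Igkv14-126, at chr6:67896172-67896642 on the plus strand, and Ighv11-2, at chr12:114048241-114048812 on the minus strand.
Igkv14-126: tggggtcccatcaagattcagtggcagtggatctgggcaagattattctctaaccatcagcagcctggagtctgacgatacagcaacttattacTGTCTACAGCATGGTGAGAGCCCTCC
Ighv11-2: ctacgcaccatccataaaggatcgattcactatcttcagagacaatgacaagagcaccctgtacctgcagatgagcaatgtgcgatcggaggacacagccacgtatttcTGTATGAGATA
The second pair, which took up to 40.8% and 24.3% of all V counts in single samples, was Igkv8-16, at chr6:70386672-70387252, and Ighv1-11, at chr12:114612243-114612675, both on the minus strand.
Igkv8-16: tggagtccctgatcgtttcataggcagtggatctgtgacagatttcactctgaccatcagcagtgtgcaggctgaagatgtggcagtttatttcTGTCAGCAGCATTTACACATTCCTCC
Ighv1-11: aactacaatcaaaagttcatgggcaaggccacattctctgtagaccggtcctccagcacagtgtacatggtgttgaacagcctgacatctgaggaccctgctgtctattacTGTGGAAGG
Relatives of Igkv8-16 that each led a sample were Igkv8-21, at chr6:70314895-70315472, and Igkv8-28, at chr6:70143593-70144166, both on the minus strand.
Igkv8-21: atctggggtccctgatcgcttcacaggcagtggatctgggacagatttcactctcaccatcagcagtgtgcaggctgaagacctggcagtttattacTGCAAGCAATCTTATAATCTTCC
Igkv8-28: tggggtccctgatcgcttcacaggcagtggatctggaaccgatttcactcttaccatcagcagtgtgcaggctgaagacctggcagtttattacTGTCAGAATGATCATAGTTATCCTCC
The last set holds Igkv1-110, at chr6:68270485-68271267 on the plus strand, and Iglv1, at chr16:19085017-19085500 on the minus strand, which both had counts in every sample.
Igkv1-110: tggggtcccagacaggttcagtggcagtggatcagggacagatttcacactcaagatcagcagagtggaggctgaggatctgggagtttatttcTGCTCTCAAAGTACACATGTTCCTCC
Iglv1: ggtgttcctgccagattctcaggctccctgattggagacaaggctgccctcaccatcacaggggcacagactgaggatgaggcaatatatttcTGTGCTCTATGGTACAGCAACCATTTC
Over the aligned transcripts, Igkv8-21 and Igkv8-28 were 89.6% identical, Igkv8-16 was 80.3% identical to Igkv8-28 and 79.0% to Igkv8-21, and Igkv14-126 was 60.6% identical to Igkv8-16. The heavy segments Ighv11-2 and Ighv1-11 were 55.3% identical.

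Sequence shared between segments bears on these counts, since reads with several alignments were not counted. Of the 183 members of the V gene class, 64 shared no 75-base window with another gene of the annotation, the median share of windows was 6.45%, and 7 shared more than 50% of theirs. Iglv1, Ighv1-5 and Igkv2-137 also overlap another annotated gene, so their reads could be split. Igkv14-126 and Ighv1-11 shared none. Ighv11-2 shared 24.8% of its windows, Igkv1-110 shared 31.2% and Iglv1 shared 9.46%. Igkv8-16 shared 65.9%, with Gm43218, a V gene at chr6:70240427-70240972 that bears no V name, is therefore no member, and had 157 counts. The levels of Igkv8-16 are therefore uncertain, as are those of the other 6: Ighv1-71 (97.2%), Ighv1-62-2 (91.1%), Ighv1-72 (71.7%), Igkv6-20 (59.5%), Igkv2-137 (53.4%) and Ighv1-62-3 (52.0%). Antibody genes of activated B cells also carry somatic mutations, which the reference lacks.

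Library depth ranged from 8482701 counts in (dep)BCP+MSC replicate 1 to 144417743 in BCP+MSC+RvE1 replicate 4, a 17.0-fold range. V counts ranged from 423 in (dep)BCP+MSC+RvE1inj replicate 3 to 256345 in replicate 1 of the same group. The limit that 3 counts allow lay between 0.0223 and 0.299 CPM (counts scaled to library size by TMM, a normalisation for library composition). B lineage transcripts were present in every group. The plasma cell joining chain Jchain ranged from 13.3 to 576 CPM, the B cell receptor component Cd79a from 1.08 to 18.3 CPM, and the B cell surface gene Ms4a1 from 0 to 4.61 CPM, with 0 counts in 1 sample. Foxp3, which marks the cells targeted by the toxin, was 0.985 ± 0.542 CPM (SD, n = 4) in (dep)BCP+MSC compared to 0.933 ± 0.240 CPM (n = 4) in BCP+MSC, and the ranges of the groups overlapped. The study reports depletion of Tregs in lymphoid organs by flow cytometry, whereas these values are mRNA of whole constructs.

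V segment expression was uneven. The 10 members with the most counts held 44.7% of 899094 V counts, and single members held from 65 to 129731. Only 18 members had a count in every sample, and 41 had counts in 12 samples or fewer. For 71 members (38.6%), a single sample held most of the counts (over 50%), and the median member had 42.9% of its counts in its highest sample. Per kilobase of transcript, Igkv14-126 averaged 165 CPM (median 31.4, range 0.875 to 1074), Igkv1-110 averaged 76.8 (median 28.4, range 2.98 to 674) and Igkv8-21 averaged 68.1 (median 1.51, range 0.039 to 1541). All 3 had counts in every sample, and the highest sample held 96.8% of the counts of Igkv8-21, 48.8% of those of Igkv1-110 and 39.8% of those of Igkv14-126. Igkv1-117 averaged 47.3, Igkv8-16 averaged 47.1, Igkv14-111 averaged 43.2, Igkv4-68 averaged 34.8 and Igkv8-28 averaged 29.3 CPM per kilobase. Among lambda segments, Iglv1 averaged 64.0, Iglv2 averaged 23.0 and Iglv3 averaged 5.62 CPM per kilobase. The means of the heavy segments were lower, at 18.6 for Ighv1-81, 18.0 for Ighv11-2, 16.8 for Ighv1-11, 14.4 for Ighv6-6, 13.2 for both Ighv9-3 and Ighv1-80, 12.6 for Ighv1-26 and 12.4 for Ighv1-82. These means do not order the segments beyond their spread, since every one of these 19 ranges overlapped the others.

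Total V expression differed more between animals than between groups. In BCP the summed level of the 184 members was 388, 421, 919 and 159 CPM in replicates 1 to 4. In BCP+MSC it was 78.2, 98.8, 349 and 699 CPM, in BCP+MSC+RvE1 126, 50.9, 741 and 1073 CPM, and in BCP+MSC+Treg 161, 123, 702 and 327 CPM. Within each of these 4 groups the samples differed by more than 5-fold. Of the (dep)BCP+MSC samples, replicates 1 and 2 had 264 and 269 CPM, whereas columns 4 and 5 had 586 and 984 CPM. The (dep)BCP+MSC+RvE1inj samples had 2995, 238, 31.6 and 1348 CPM, which includes both the highest and the lowest sample of the series, 94.9-fold apart.

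Group means of total V level were 471 ± 320 CPM in BCP, 306 ± 289 in BCP+MSC, 498 ± 493 in BCP+MSC+RvE1, 328 ± 265 in BCP+MSC+Treg, 526 ± 341 in (dep)BCP+MSC and 1153 ± 1357 in (dep)BCP+MSC+RvE1inj (SD, n = 4 each). The difference of mean log2 levels was −0.91 for BCP+MSC against BCP, −0.56 for BCP+MSC+RvE1 against BCP and −0.60 for BCP+MSC+Treg against BCP. Against BCP+MSC it was 0.36 for BCP+MSC+RvE1, 0.32 for BCP+MSC+Treg and 1.11 for (dep)BCP+MSC. It was −0.04 for BCP+MSC+Treg against BCP+MSC+RvE1 and −0.11 for (dep)BCP+MSC+RvE1inj against (dep)BCP+MSC. Leaving out single libraries turned the sign of both of these. The sign also turned for BCP+MSC+RvE1 against BCP, and for BCP+MSC+RvE1 and BCP+MSC+Treg against BCP+MSC. In all 8 comparisons the groups overlapped and the difference was within the spread between samples.

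**Figure D1:**
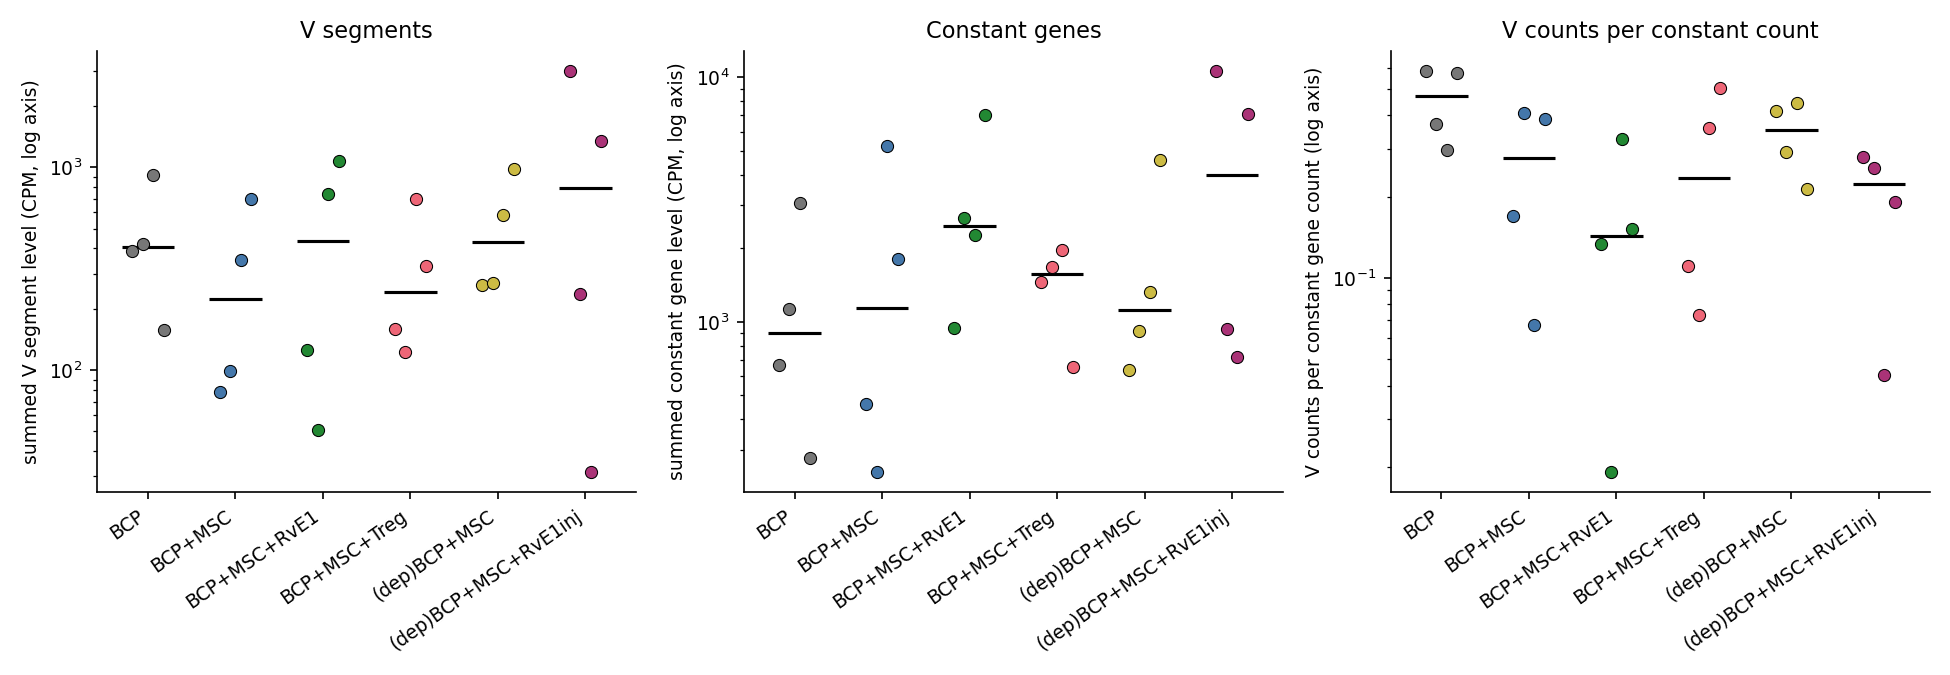
Summed V segment level, summed immunoglobulin constant gene level (both in TMM-scaled CPM, log axes) and V counts per constant gene count (log axis) in each of the 24 samples, by group, with lines at the group medians. V levels run from 31.6 to 2995 CPM and overlap between all groups compared, and V counts per constant count run from 0.0192 to 0.584.

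Constant genes, which are joined to the V segments in the same mRNA, ranged 43.8-fold over the samples. Their summed level was 664, 1132, 3076 and 277 CPM in BCP, 462, 243, 5232 and 1809 in BCP+MSC, 942, 2656, 2262 and 7047 in BCP+MSC+RvE1. BCP+MSC+Treg had 1452, 1681, 1964 and 652 CPM. The level was 637, 919, 1320 and 4595 CPM in (dep)BCP+MSC and 10643, 933, 719 and 7073 in (dep)BCP+MSC+RvE1inj. The log2 levels of V and constant genes had a Pearson r of 0.67 and a Spearman rho of 0.69 over the 24 samples, and r was 0.61 without the 2 samples farthest from the median V level. Both measures share the library and its depth.

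V counts per constant gene count ranged 30.5-fold. The ratio was 0.584, 0.372, 0.299 and 0.572 in BCP, 0.169, 0.406, 0.067 and 0.386 in BCP+MSC, 0.133, 0.0192, 0.328 and 0.152 in BCP+MSC+RvE1, and 0.111, 0.073, 0.358 and 0.502 in BCP+MSC+Treg. It was 0.415, 0.292, 0.444 and 0.214 in (dep)BCP+MSC and 0.281, 0.255, 0.044 and 0.191 in (dep)BCP+MSC+RvE1inj. The lowest values were those of BCP+MSC+RvE1 replicate 2 and (dep)BCP+MSC+RvE1inj replicate 3, the libraries with the fewest V counts (846 and 423). The ratio moved together across loci that recombine separately. Over 24 samples the log2 ratio of Igkv to Igkc counts, which ranged from 0.0204 to 1.57, had r = 0.93 with the ratio of Ighv to heavy constant counts and r = 0.91 with that of Iglv to lambda constant counts. It had r = 0.94 with the ratio of kappa joining segments to Igkc, and r = 0.98 with the ratio of T cell receptor V to constant counts, which ranged from 0.0124 to 0.547 and comes from T cells. With the log2 total count it had r = 0.018 and rho = −0.18 (r = −0.40 without the 2 samples farthest from the median), and with the percentage of mitochondrial counts r = 0.64 and rho = 0.41 (r = 0.47 without the 2 farthest). These ratios share each sample's library. The part of this ratio in the V results was not tested, except where values without those 2 libraries are given.

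Kappa segments supplied the largest share of V counts in all 24 samples. The Igkv share was 61.0 ± 10.8% in BCP, 70.7 ± 18.2% in BCP+MSC, 70.7 ± 9.94% in BCP+MSC+RvE1, 75.9 ± 5.42% in BCP+MSC+Treg, 67.6 ± 4.84% in (dep)BCP+MSC and 71.1 ± 3.03% in (dep)BCP+MSC+RvE1inj (SD, n = 4 each). It was lowest in BCP replicate 2 at 45.6% and highest in BCP+MSC replicate 3 at 88.9%. The Iglv share ranged from 1.23% in BCP replicate 4 to 19.0% in BCP+MSC+RvE1 replicate 2, so that kappa counts per lambda count ran from 2.59 to 53.6. These are shares of counts, not scaled by length, and the members were between 338 and 501 bases long.

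The heavy chain share was 33.8, 36.8, 22.6 and 32.9% in BCP and 19.5, 22.3, 20.2 and 12.9% in BCP+MSC+RvE1. The closest samples were at 22.6% in BCP replicate 3 and 22.3% in BCP+MSC+RvE1 replicate 2, where 189 of 846 V counts were heavy (95% Wilson interval 19.7 to 25.3%, counting error only), so whether these 2 samples differ was not detectable at this depth. The other samples lay at 32.9% or above in BCP and at 20.2% or below in BCP+MSC+RvE1. It was 20.5, 41.1, 5.73 and 23.0% in BCP+MSC, 12.7, 11.7, 21.7 and 28.2% in BCP+MSC+Treg, 37.8, 28.2, 25.4 and 18.8% in (dep)BCP+MSC, and 20.3, 27.9, 19.9 and 19.9% in (dep)BCP+MSC+RvE1inj. Group means were 31.5 ± 6.17% in BCP, 22.6 ± 14.5% in BCP+MSC, 18.7 ± 4.07% in BCP+MSC+RvE1, 18.6 ± 7.81% in BCP+MSC+Treg, 27.6 ± 7.90% in (dep)BCP+MSC and 22.0 ± 3.92% in (dep)BCP+MSC+RvE1inj. The heavy share moved with the ratio of Igkv to Igkc counts (r = 0.57, rho = 0.76, and r = 0.85 without the 2 samples farthest from the median ratio, over 24 samples), which was lower in every BCP+MSC+RvE1 sample but replicate 3 (0.340, 0.0204, 0.864 and 0.332) than in any BCP sample (1.37, 0.773, 0.703 and 1.57). Skeletal muscle markers were also higher in BCP+MSC+RvE1 than in BCP for 2 of 8 genes, at an unadjusted edgeR p below 0.05 and a log2 fold change above 1, which 5.36% of all genes tested passed (median log2 fold change 1.32), with summed levels of 19146 to 36400 CPM against 4598 to 19360 CPM. The part of that ratio and of these markers in the difference of shares was not tested.

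**Figure D2:**
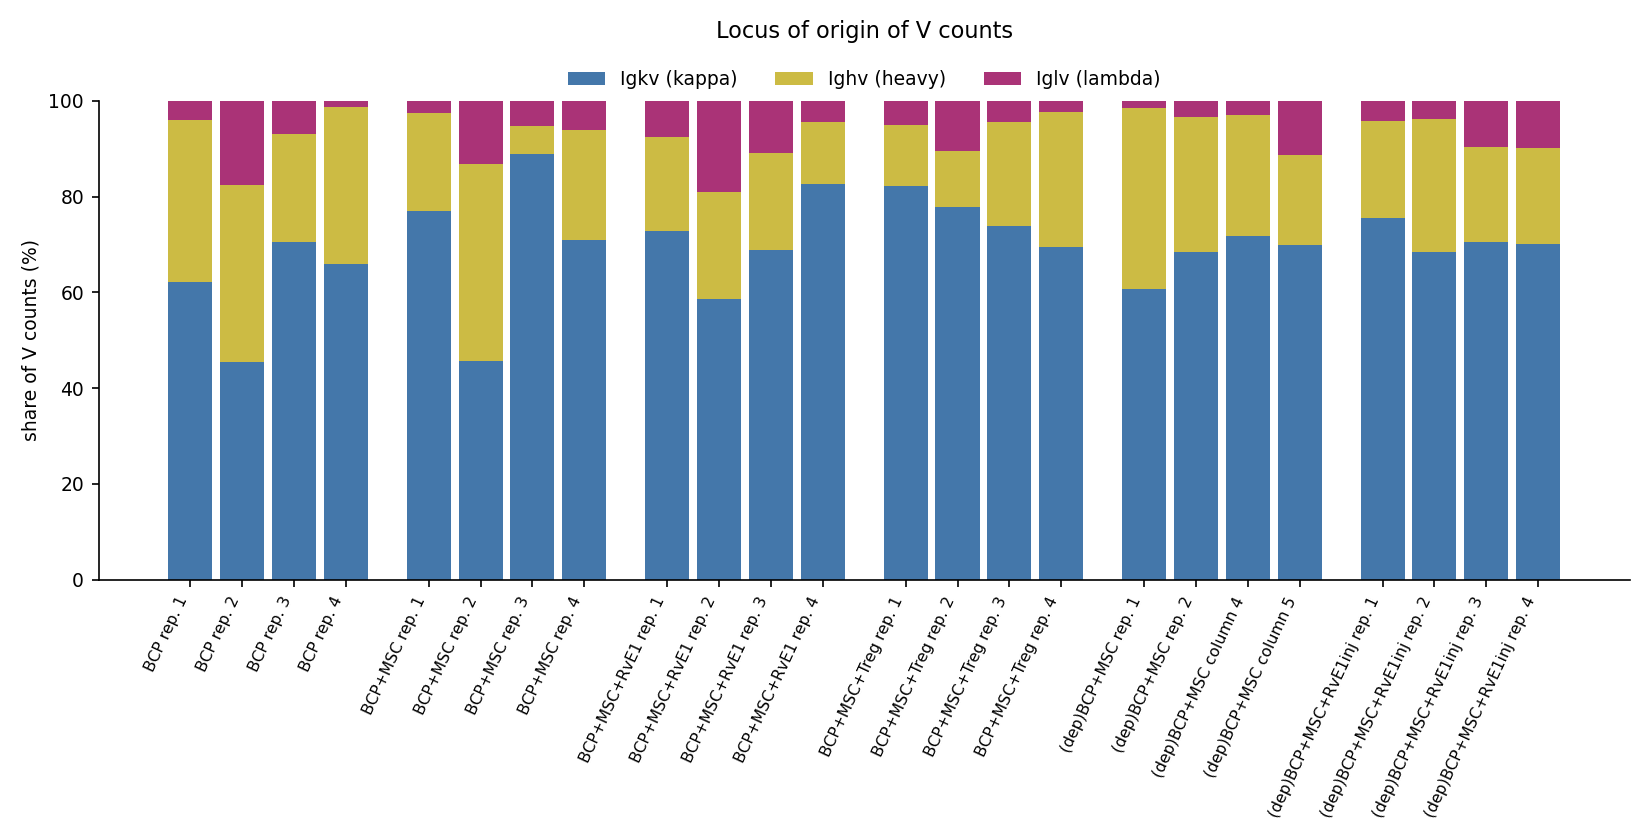
Share of V counts (%) from the kappa, heavy and lambda loci in each of the 24 samples, as stacked bars. Kappa segments supply between 45.6 and 88.9% of V counts, and the heavy share lies between 12.9 and 22.3% in BCP+MSC+RvE1 against 22.6 to 36.8% in BCP.

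By family, Igkv8 supplied 14.7% of V counts on average (8 members, range 0.78 to 46.8%), Ighv1, the large J558 family of mouse heavy chains, 13.0% (45 members), Igkv14 12.5% (4 members, range 0.49 to 41.8%), Igkv1 12.4% (8 members) and Igkv4 8.61% (24 members). Ighv1 made up 54.6% of heavy V counts on average, with a range of 22.3 to 87.9% over samples. The kappa locus holds V segments in both orientations, and minus-strand members (57 of 90) supplied between 31.7 and 84.9% of Igkv counts.

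Evenness was measured as the effective number of V segments, the number of equally used segments that would give the same chance of drawing 1 segment in a pair of counts. It was 16.0, 21.1, 14.3 and 19.4 in BCP, 16.1, 25.0, 4.24 and 5.79 in BCP+MSC, 33.5, 13.7, 13.4 and 6.65 in BCP+MSC+RvE1, and 9.61, 22.8, 11.7 and 15.9 in BCP+MSC+Treg. In (dep)BCP+MSC it was 4.73, 4.89, 12.1 and 14.2, and in (dep)BCP+MSC+RvE1inj 15.3, 40.2, 28.2 and 29.6. All 4 samples with injected RvE1 thus lay above all 4 of (dep)BCP+MSC, and this was the only one of the 8 comparisons in which the groups did not overlap. The means were 28.3 ± 10.2 and 8.96 ± 4.87 (SD, n = 4 each), with a ratio of geometric means of 3.38, and the mean with injection was 28.3 also without replicate 3, the library of 423 V counts. The closest samples of these groups, at 15.3 and 14.2, were replicate 1 and column 5. Within the heavy locus alone the groups overlapped, with an effective number of 13.9 in injected replicate 3 and 15.3 in column 5, and so did the share of the leading segment, with 19.7% in injected replicate 1 and 18.4% in column 5. V counts per constant count were 0.477 times those of (dep)BCP+MSC, lowest in injected replicate 3 at 0.044. At an unadjusted edgeR p below 0.05 and a log2 fold change above 1, 10 of 18 B cell genes were higher (2.62% of all genes tested). At the same p and a change below −1, 3 of 8 skin and hair and 1 of 8 skeletal muscle markers were lower (2.5%). The part of these in the evenness was not tested.

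The other means were 17.7 ± 3.14 in BCP, 12.8 ± 9.70 in BCP+MSC, 15.0 ± 5.81 in BCP+MSC+Treg and 16.8 ± 11.6 in BCP+MSC+RvE1. The unbiased index used does not depend on depth in expectation. As a second measure, the Shannon effective number after thinning every sample to 400 V counts was 31.5, 54.5, 39.8 and 46.7 in (dep)BCP+MSC+RvE1inj and 11.0, 12.7, 25.7 and 28.3 in (dep)BCP+MSC, again without overlap. The effective number had r = −0.26 with total V level on log2 scales over 24 samples, which share their libraries.

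**Figure D3:**
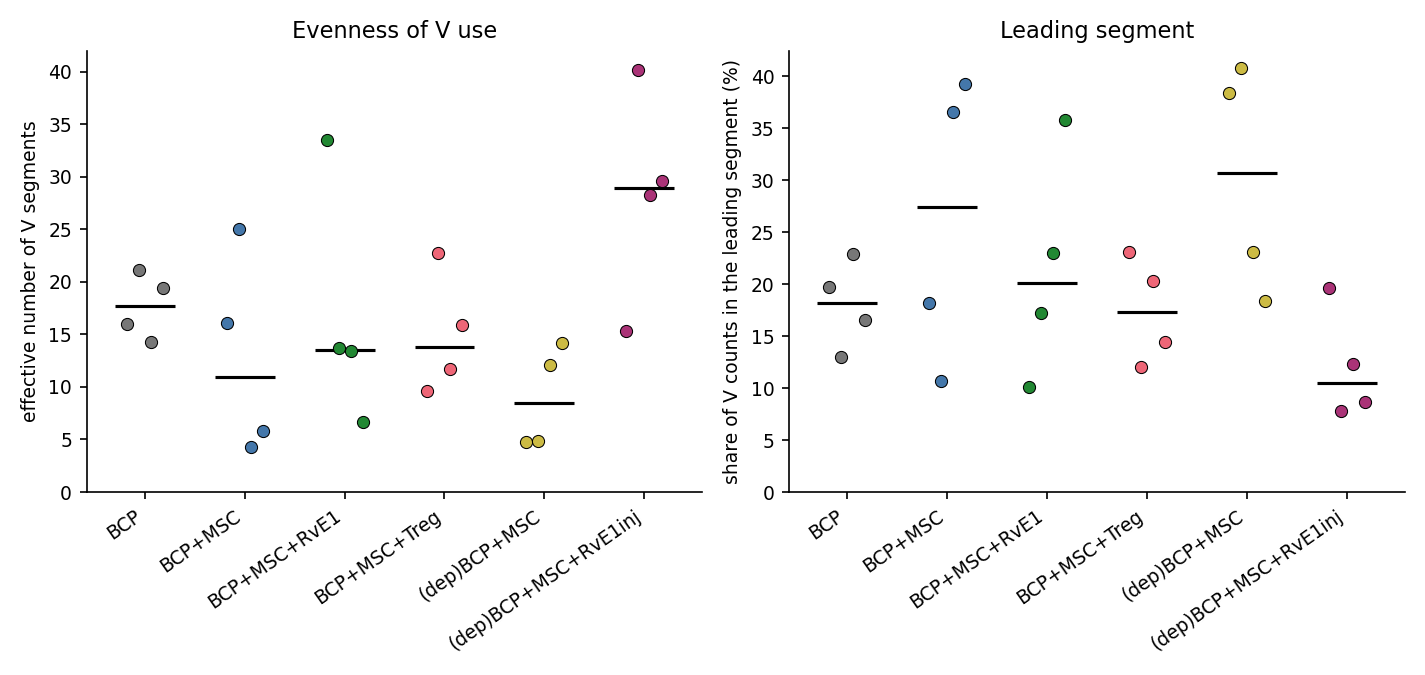
Effective number of V segments (left) and share of V counts in the leading segment in percent (right) in each sample, by group, with lines at the group medians. The samples of (dep)BCP+MSC+RvE1inj lie between 15.3 and 40.2 effective segments and those of (dep)BCP+MSC between 4.73 and 14.2.

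The leading segment varied between animals, and 2 segments, Igkv14-126 in 6 samples and Igkv8-16 in 5, led 11 of the 24. In all, 12 of the 184 members led a sample, 17 reached 10% of V counts in any sample, and the 10 leading segments of each sample held from 38.1 to 86.8% of its V counts. Kappa segments led in 21 samples, lambda segments in 3 and heavy segments in 0. In BCP the leaders were Igkv1-110 (19.7%), Iglv2 (13.0%), Igkv14-126 (22.9%) and Igkv4-68 (16.6%), a different one in each replicate. In BCP+MSC they were Igkv8-16 (18.2%), Iglv1 (10.6%), Igkv8-16 again (36.6%, followed by Igkv1-88 at 31.0%) and Igkv14-126 (39.3%). Igkv14-126 led in BCP+MSC+RvE1 replicates 1, 3 and 4 (10.1, 23.0 and 35.8%) and Iglv1 in replicate 2 (17.3%).

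In BCP+MSC+Treg the leaders were Igkv8-16 (23.1%), Igkv1-117 (12.0%), Igkv6-32 (20.3%) and Igkv1-135 (14.4%). Igkv8-16 led in both labelled replicates of (dep)BCP+MSC (38.4 and 40.8%), whereas Igkv14-126 (23.1%) and Igkv8-28 (18.4%) led in the other 2 samples. In (dep)BCP+MSC+RvE1inj the leaders were Igkv8-21 (19.7%), Igkv3-2 (7.75%), Igkv8-28 (12.3%) and Igkv1-117 (8.61%). No segment led all samples of a group.

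**Figure D4:**
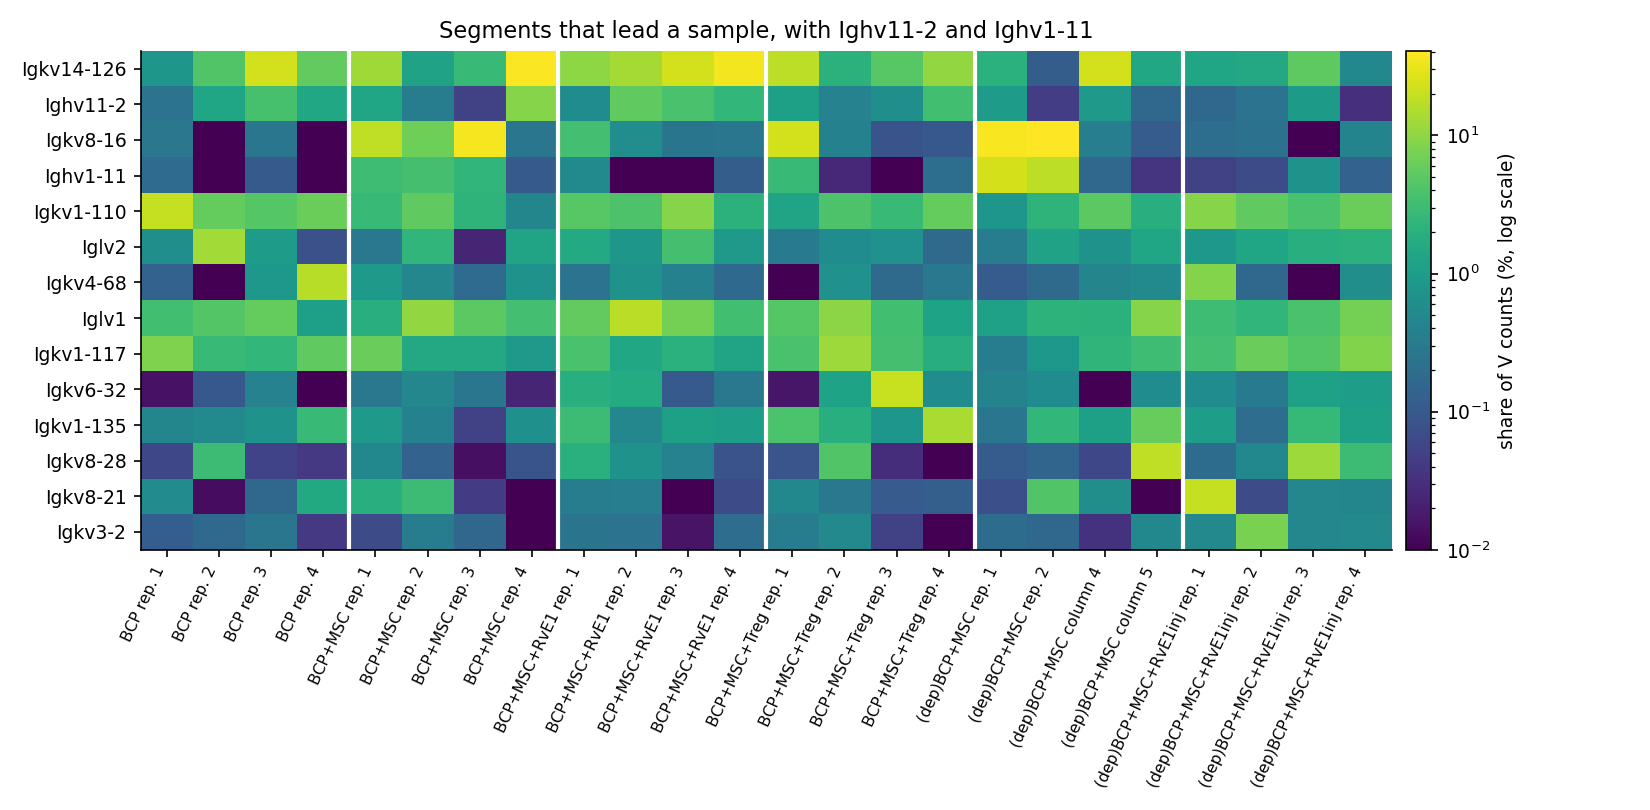
Share of V counts (%, log colour scale, shares under 0.01% drawn at 0.01%) of the 12 segments that led a sample, with Ighv11-2 and Ighv1-11, in the 24 samples, grouped by white lines. Igkv14-126 and Iglv1 are above 0.1% in every sample, while Igkv8-16 runs from 0 to 40.8%.

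Igkv14-126 and Ighv11-2 varied in parallel over animals. Ighv11 joined to Igkv14-126 is the textbook receptor of B-1 cells that bind phosphatidylcholine and make natural IgM. The share of Igkv14-126 was 0.812, 4.22, 22.9 and 5.63% in BCP, 12.5, 1.22, 2.70 and 39.3% in BCP+MSC, 10.1, 13.4, 23.0 and 35.8% in BCP+MSC+RvE1, and 18.0, 2.09, 4.70 and 10.5% in BCP+MSC+Treg. It was 2.04, 0.117, 23.1 and 1.45% in (dep)BCP+MSC and 1.33, 1.52, 5.20 and 0.483% in (dep)BCP+MSC+RvE1inj. All BCP+MSC+RvE1 samples were at 10.1% or above, but samples of BCP and of BCP+MSC lay within their range.

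Ighv11-2 took 0.241, 1.32, 3.60 and 1.47% of V counts in BCP, 1.36, 0.324, 0.0521 and 9.14% in BCP+MSC, 0.564, 5.44, 3.73 and 2.49% in BCP+MSC+RvE1, and 1.11, 0.396, 0.621 and 3.34% in BCP+MSC+Treg. In the toxin groups it took 0.98, 0.0448, 0.878 and 0.169% without and 0.168, 0.238, 0.946 and 0.0308% with injected RvE1. Ighv11-2 was the leading heavy segment in BCP replicate 3, BCP+MSC replicate 4 and BCP+MSC+RvE1 replicates 2 and 3. Its log2 share had r = 0.86 and rho = 0.84 with that of Igkv14-126 over 24 samples, and r = 0.80 without the 2 samples farthest from the median. Among 1176 pairs of 24 heavy and 49 light segments with a mean share above 0.3%, this was the highest r. The log2 share of Igkv14-126 had r = 0.57 with the share of Ighm among heavy constant counts, and that of Ighv11-2 had r = 0.36. All points share their library, and shares within a sample sum to 100%.

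Igkv8-16 took 6.64% or more of V counts in 6 samples, all from the groups BCP+MSC, (dep)BCP+MSC and BCP+MSC+Treg, and 3.40% or less in the other 18. Its share was 18.2, 6.64, 36.6 and 0.264% in BCP+MSC, 38.4, 40.8, 0.353 and 0.111% in (dep)BCP+MSC, and 23.1, 0.383, 0.0878 and 0.10% in BCP+MSC+Treg. It was 0.271, 0, 0.260 and 0% in BCP, 3.40, 0.591, 0.250 and 0.265% in BCP+MSC+RvE1, and 0.203, 0.221, 0 and 0.426% in (dep)BCP+MSC+RvE1inj. Ighv1-11 was high in the same samples, at 3.07, 3.57, 2.40 and 0.106% in BCP+MSC, 24.3, 18.1, 0.164 and 0.0363% in (dep)BCP+MSC, and 2.68% in BCP+MSC+Treg replicate 1. In the other 15 samples it was at 0.709% or below. The pair had r = 0.80 and rho = 0.67 (r = 0.72 without the 2 farthest samples), the second highest r of the 1176.

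The constant gene Ighg3, which encodes the IgG3 heavy chain, made up 7.86, 1.28, 32.8 and 0.575% of heavy constant counts in BCP+MSC, 53.7, 47.3, 0.978 and 1.22% in (dep)BCP+MSC and 13.5% in BCP+MSC+Treg replicate 1, and 4.01% or less in the other 15 samples. Its log2 share had r = 0.78 and rho = 0.72 with that of Igkv8-16 and r = 0.60 and rho = 0.45 with that of Ighv1-11, over 24 samples. The 5 samples with the highest Igkv8-16 shares were also the 5 with the highest Ighg3 shares. Bulk counts do not show which V segment was joined to which constant gene.

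Other textbook pairs had a lower r. Ighv12-3 and Igkv4-91, the other phosphatidylcholine-binding pair, had r = 0.74 and rho = 0.66 (r = 0.63 without the 2 farthest samples). Ighv7-1 and Igkv7-33, of phosphorylcholine-binding T15 antibodies, had r = 0.35 and rho = 0.30 (0.31 without the 2 farthest). Ighv1-72 and Iglv1, of antibodies to the hapten NP, had r = 0.0021 and rho = 0.16 (r = 0.30 without the 2 farthest), and the level of Ighv1-72 is uncertain for its shared windows. Whether any of these correlations differ from each other was not tested.

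**Figure D5:**
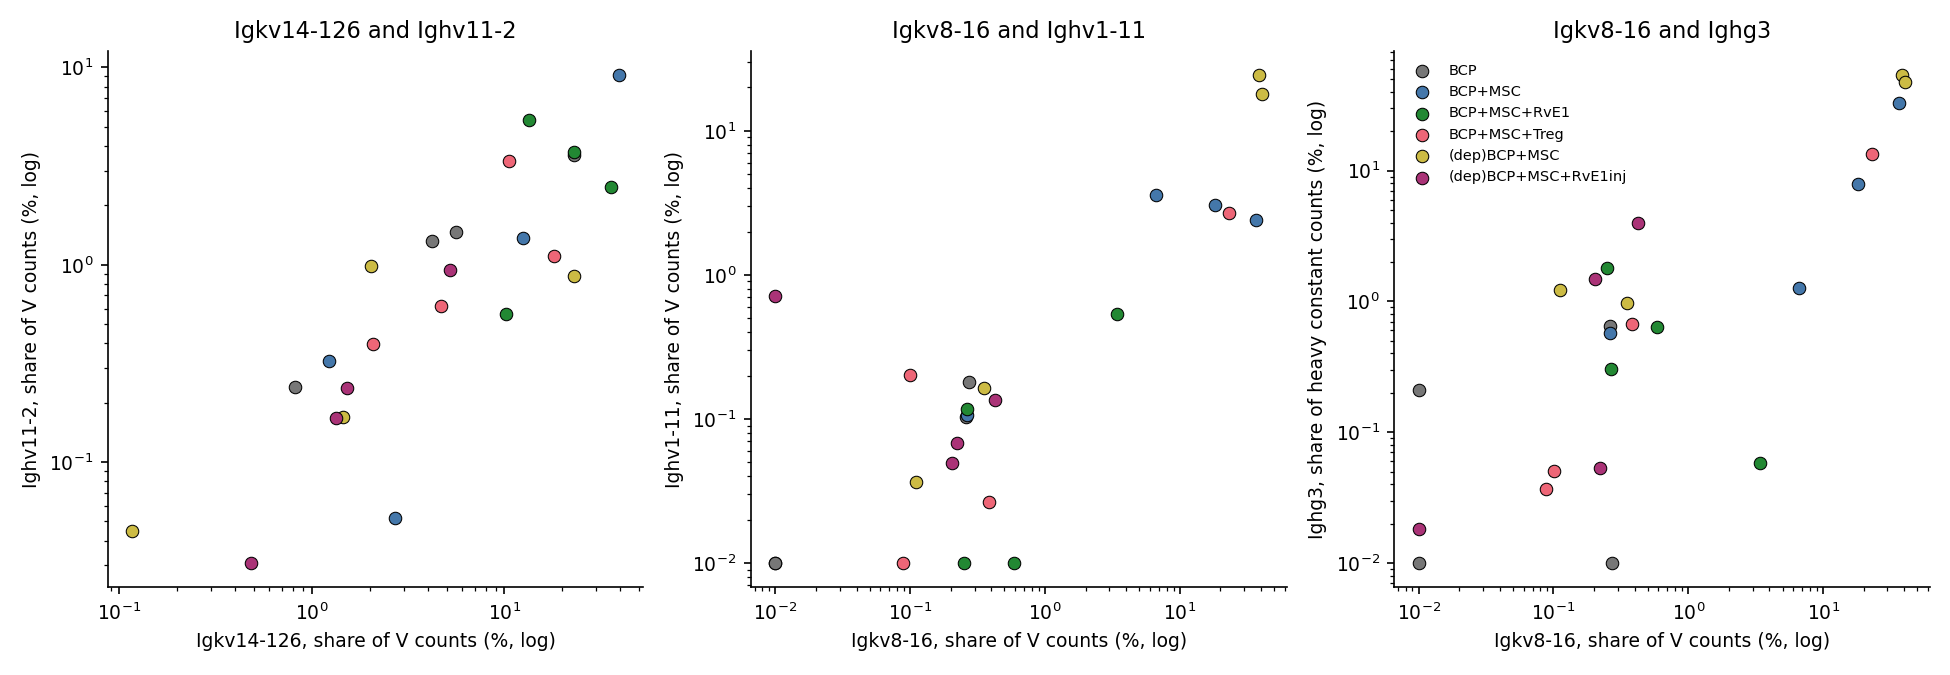
Shares of V counts (%, log axes, values under 0.01% drawn at 0.01%) in the 24 samples, coloured by group: Igkv14-126 against Ighv11-2, Igkv8-16 against Ighv1-11, and Igkv8-16 against the share of Ighg3 among heavy constant counts. Pearson r of the log2 shares is 0.86, 0.80 and 0.78, and samples of several groups lie at both ends of each plot.

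Single members were compared between groups in 8 contrasts. Each gene was tested with the edgeR quasi-likelihood test over 30564 genes with Benjamini-Hochberg adjustment. A member passed the adjusted rule at an adjusted p below 0.05 with a log2 fold change above 1 or below −1, and the unadjusted rule at an unadjusted p below 0.05 with the same fold change. All 184 members were tested. Comparisons that share a group are not independent of each other. Members are not independent of each other either, since those of a sample share its library and its V to constant ratio. Counts below are given beside the percentage of all genes tested that passed the same rule (the background). Genes of the background needed 10 counts in total, whereas members needed 50.

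Adding MSCs to granules was the contrast in which most members passed in 1 direction. Between BCP+MSC and BCP, 42 of 184 members (22.8%) were lower by the unadjusted rule against a background of 1.83%, and 7 (3.80%) were higher against 2.49%. The 42 comprised 21 Ighv and 21 Igkv members, and the median log2 fold change was −1.43 over members and 0.06 over all genes, with 139 members below and 41 above 0. No member passed the adjusted rule in edgeR (background 0%), where 49 had an unadjusted p below 0.05, and 3 passed it in DESeq2. Without BCP replicate 3, 27 members passed the unadjusted rule in place of 49. V counts per constant count moved with this result. Their geometric mean in BCP+MSC was 0.468 times that in BCP, with 0 of 4 BCP+MSC samples above the BCP median, and the ratio of Igkv to Igkc counts was 0.460 times that in BCP, while the constant gene level was 1.13 times that in BCP, all with overlap between the groups. The direction of the constant gene level rests on BCP+MSC replicate 3, at 5232 CPM against 243 to 1809 CPM in the other replicates. Its ratio of Igkv to Igkc counts was also lowest, at 0.117 against 0.398 to 1.15. The part of the V to constant ratio in the lower V members was not tested.

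For 13 members, all 4 BCP+MSC samples lay below all 4 BCP samples (7.07% of members, against 0.566% of all genes tested). Igkv6-20 was 5.36, 0.512, 13.8 and 0.189 CPM in BCP and 0, 0, 0.0331 and 0.0743 CPM in BCP+MSC (log2 fold change −7.31, SE 1.75). Ighv1-81 was 32.2, 9.34, 14.3 and 6.36 CPM in BCP and 0.164, 0.351, 0.0331 and 0.876 CPM in BCP+MSC (−5.41, SE 1.36). Ighv1-42 was 12.1, 11.0, 0.594 and 0.567 CPM in BCP and 0, 0, 0 and 0.104 CPM in BCP+MSC (−7.61, SE 2.01). The adjusted p in edgeR was 0.888 for each of these 3. As a whole they were low in all BCP+MSC animals and present in all BCP animals at levels that differed more than 5-fold between them.

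MSCs primed with RvE1 were compared with BCP and with unprimed MSCs. Against BCP, 6 members (3.26%) were higher against a background of 5.36% and 13 (7.07%) were lower against 3.18%, with a median log2 fold change of −0.17. In edgeR 0 members passed the adjusted rule (background 0%), 19 had an unadjusted p below 0.05, and 2 passed the adjusted rule in DESeq2. Ighv1-77 was 0.299, 0.181, 0.322 and 1.16 CPM in BCP+MSC+RvE1 and 0, 0.0365, 0.0321 and 0 CPM in BCP (log2 fold change 4.22, SE 1.49, edgeR adjusted p = 0.30). Ighv1-22 was 0.272, 0.361, 0.700 and 0.0819 CPM against 1.87, 1.41, 2.60 and 1.89 CPM in BCP (−2.48, SE 1.04, edgeR adjusted p = 0.30). These were the only members without overlap between the groups (1 each way of 184, whereas 4.79% of all genes tested lay higher and 5.8% lower without overlap). V counts per constant count in BCP+MSC+RvE1 had a geometric mean 0.242 times that in BCP, with 0 of 4 samples above the BCP median, while the constant gene level was 2.81 times that in BCP with 4 of 4 above, and the part of this in the lower members was not tested. Much of the low V to constant ratio came from BCP+MSC+RvE1 replicate 2, at 0.0192 against 0.133 to 0.328 in the other replicates. Without BCP replicate 2, 12 members passed the unadjusted rule in place of 19.

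Against BCP+MSC, 29 members (15.8%) were higher in BCP+MSC+RvE1 against a background of 1.11%, and 4 (2.17%) were lower against 1.39%. The 29 comprised 12 Ighv and 17 Igkv members, and the median log2 fold change was 1.33, against −0.04 over all genes. No member passed the adjusted rule in edgeR (background 0%), 33 had an unadjusted p below 0.05, and DESeq2 gave 1. Igkv4-80 was 0.571, 0.301, 0.605 and 5.27 CPM in BCP+MSC+RvE1 and 0, 0, 0.0166 and 0.0891 CPM in BCP+MSC (log2 fold change 5.79, SE 1.65, edgeR adjusted p = 0.924). Ighv1-81 was 2.90, 0.903, 6.83 and 2.59 CPM against the BCP+MSC values given above (3.19, SE 1.24, edgeR adjusted p = 0.924). The V counts per constant count were 0.518 times those of BCP+MSC. Much of this lower value came from BCP+MSC+RvE1 replicate 2, at 0.0192 against 0.133 to 0.328 in its group. BCP+MSC replicate 3, at 0.067 against 0.169 to 0.406 in its group, moved the value the other way. The count of 33 became 19 without BCP+MSC replicate 3 and 21 without BCP+MSC+RvE1 replicate 4, the deepest library.

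MSCs cocultured with Tregs were compared with 3 groups. Against BCP, 22 members (12.0%) were lower against a background of 2.09% and 4 (2.17%) were higher against 3.77%, with a median log2 fold change of −0.95. In edgeR 0 members passed the adjusted rule (background 0%), 26 had an unadjusted p below 0.05, and DESeq2 gave 1. Ighv1-42 was 0.0131, 0, 0.406 and 0 CPM in BCP+MSC+Treg (log2 fold change −5.62, edgeR adjusted p = 0.614), below all BCP samples. Ighv1-22 was 0.105, 0.405, 0.336 and 0.0822 CPM (−2.97, edgeR adjusted p = 0.614), likewise below all BCP samples. V counts per constant count were 0.445 times and the ratio of Igkv to Igkc counts 0.421 times those of BCP, with the constant gene level at 1.49 times, and the part of this in the lower members was not tested.

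Against BCP+MSC, 12 members (6.52%) were higher in BCP+MSC+Treg against a background of 1.24% and 4 (2.17%) were lower against 1.33%. In edgeR 0 members passed the adjusted rule (background 0%), 16 had an unadjusted p below 0.05, and DESeq2 also gave 0. The median log2 fold change was 0.12. Igkv4-53 was 10.9, 3.69, 12.0 and 13.8 CPM with Tregs and 0.136, 0.168, 0.480 and 1.08 CPM without (log2 fold change 4.40, SE 1.56, edgeR adjusted p = 1), with no overlap. Igkv9-129 had 0 counts in all BCP+MSC samples and 2.50, 0.0162, 0.0140 and 0.329 CPM in BCP+MSC+Treg, so its mean was at least 12.9-fold higher against a floor of 3 counts per library, and at least 2.16-fold without replicate 1. There, V counts per constant count were 0.951 times those of BCP+MSC. Without BCP+MSC replicate 4, 25 members passed the unadjusted rule in place of 16.

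With Tregs compared to RvE1 priming, 20 members (10.9%) were lower against a background of 1.04% and 6 (3.26%) were higher against 1.18%. In edgeR 0 members passed the adjusted rule (background 0%), 26 had an unadjusted p below 0.05, and DESeq2 gave 1. The median log2 fold change was −0.85. Ighv1-12 was 0.342, 0.129, 1.91 and 0.164 CPM with Tregs and at 2 counts or fewer in every BCP+MSC+RvE1 sample, so its mean was at least 8.46-fold higher, and at least 2.82-fold without BCP+MSC+Treg replicate 3. Ighv1-77 was 0, 0.129, 0.0841 and 0 CPM with Tregs, below all RvE1 samples (log2 fold change −3.0, SE 1.33, edgeR adjusted p = 1). Here V counts per constant count were 1.84 times as high with Tregs. That difference rests on BCP+MSC+RvE1 replicate 2, at 0.0192 against 0.133 to 0.328 in the other replicates of its group. Without BCP+MSC+RvE1 replicate 4, 13 members passed the unadjusted rule in place of 26.

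Toxin-treated mice with MSC constructs were compared with untreated ones. Between (dep)BCP+MSC and BCP+MSC, 29 members (15.8%) were higher against a background of 6.65% and 4 (2.17%) were lower against 6.53%, with a median log2 fold change of 1.41. For 5 members (2.72%) all (dep)BCP+MSC samples lay above all BCP+MSC samples, a smaller share than the 4.22% of all genes tested. Ighv2-9 was 0.698, 0.241, 0.212 and 6.30 CPM against 0, 0.137, 0.0497 and 0.0446 CPM (log2 fold change 4.89, SE 1.64, edgeR adjusted p = 0.0970). Ighv1-50 was 1.20, 1.47, 5.52 and 0.441 CPM against 0, 0.0763, 0.116 and 0.252 CPM (4.21, SE 1.44, edgeR adjusted p = 0.105). Ighv1-82 was 0.498, 0.939, 8.77 and 4.87 CPM against 0.109, 0.153, 0.232 and 0 CPM (4.94, SE 1.90, edgeR adjusted p = 0.150). With toxin, V counts per constant count were 1.60 times those of BCP+MSC, and their part in the higher members was not tested. Without column 5, 19 members passed the unadjusted rule in place of 33.

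This was the only contrast in which edgeR called members by the adjusted rule, 2 of 184 (1.09%) against a background of 3.14%. DESeq2 called 14, and edgeR called 0 when only these 2 groups were fitted. The 2 are named here after their values were seen. Igkv4-69 was at 0 in all BCP+MSC samples and 0, 0.193, 12.0 and 0.0210 CPM in (dep)BCP+MSC (at least 55.0-fold higher, edgeR adjusted p = 0.040), so nearly all of it came from column 4, and the bound was 1.28-fold without that sample. Igkv7-33 was at 0 in all BCP+MSC samples and 0, 0.0482, 0 and 2.33 CPM in (dep)BCP+MSC (at least 10.7-fold higher, edgeR adjusted p = 0.0495), nearly all of it from column 5, without which the mean was under the floor. In both, some toxin-treated samples were at 0 like the untreated ones, so the groups overlapped. The count of 2 lay between 0 and 3 when single libraries were left out.

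Local RvE1 injection under toxin was the last contrast. Between (dep)BCP+MSC+RvE1inj and (dep)BCP+MSC, 33 members (17.9%) were higher against a background of 2.62% and 5 (2.72%) were lower against 2.5%. The 33 comprised 15 Ighv and 18 Igkv members, and the median log2 fold change was 1.64, against 0.00 over all genes. In edgeR 0 members passed the adjusted rule (background 0%), 38 had an unadjusted p below 0.05, and DESeq2 gave 1. No member was without overlap between these groups, against 1.3% of all genes tested in each direction. V counts per constant count were 0.477 times those of (dep)BCP+MSC, with 0 of 4 injected samples above its median. Much of this came from injected replicate 3, at 0.044 against 0.191 to 0.281 in the other injected samples. Without (dep)BCP+MSC+RvE1inj replicate 1, 18 members passed the unadjusted rule in place of 38.

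Heavy constant genes encode the class of an antibody, and 12 of 13 constant genes, heavy and light together, were tested. By the unadjusted rule, the IgG2c gene Ighg2c was lower in BCP+MSC, at 3.02 ± 1.56 CPM, and in BCP+MSC+Treg, at 3.02 ± 1.57 CPM, than in BCP, at 11.2 ± 3.27 CPM (SD, n = 4 each, log2 fold changes −1.89 and −1.86), without overlap in either case. It was 8.71 ± 4.93 CPM in (dep)BCP+MSC, above all BCP+MSC samples (log2 fold change 1.54). The IgG2b gene Ighg2b was 16.3 ± 16.8 CPM in BCP, 3.48 ± 1.41 in BCP+MSC, 14.6 ± 7.86 in BCP+MSC+RvE1 and 25.5 ± 31.0 in (dep)BCP+MSC, and passed in 3 of the 4 contrasts with BCP+MSC (−2.24 for BCP+MSC against BCP, 2.08 for BCP+MSC+RvE1 and 2.88 for (dep)BCP+MSC against BCP+MSC). BCP+MSC samples lay at 2.14 to 5.46 CPM, which lay within the range of BCP and overlapped that of (dep)BCP+MSC, whose lowest sample was at 4.29 CPM. The Ighg2b mean was 8.41 CPM in BCP without replicate 3 and 10.6 CPM in (dep)BCP+MSC without column 5, and in either case the gene no longer passed against BCP+MSC (log2 fold changes −1.28 and 1.55).

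Ighg3 passed as higher in BCP+MSC than in BCP (log2 fold change 5.86, SE 2.59), but the groups overlapped, at 2.40 to 832 CPM in BCP+MSC and 0 to 13.6 CPM in BCP. Its BCP+MSC mean was 217 CPM, and 11.3 CPM without replicate 3. With injected RvE1, 4 of 12 constant genes passed as higher than in (dep)BCP+MSC, against the background of 2.62%: Ighe of IgE at 44.3 ± 40.9 against 3.64 ± 3.93 CPM, Ighg1 of IgG1 at 723 ± 1009 against 43.9 ± 15.0 CPM, Ighg2c at 29.3 ± 35.2 against 8.71 ± 4.93 CPM, and Ighd of IgD at 6.24 ± 5.47 against 2.22 ± 1.53 CPM. All 4 overlapped between the groups. Without injected replicate 1, the mean with injection was 235 CPM for Ighg1 and 12.5 CPM for Ighg2c, and none of the 4 passed (log2 fold changes 2.47 for Ighg1, 0.55 for Ighg2c, 3.10 for Ighe and 1.09 for Ighd). The Ighe mean of (dep)BCP+MSC was 1.68 CPM without replicate 2. In BCP+MSC against BCP, 1 of 12 passed as higher and 2 as lower (backgrounds 2.49 and 1.83%), and in (dep)BCP+MSC against BCP+MSC 2 passed as higher (6.65%). Of the 11 passes of constant genes by the unadjusted rule, 1 held when each of the 8 libraries compared was left out in turn, that of Ighg2c in BCP+MSC against BCP. Igkc and Ighm passed in none of the 8 contrasts. No constant gene passed the adjusted rule in edgeR in any of them, where the lowest adjusted p was 0.109.

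Marker genes of B cells passed only in the 2 contrasts of the toxin-treated groups, and in opposite directions. Of 18 B cell genes, 0 passed the unadjusted rule of edgeR in the 6 contrasts without toxin. With toxin, (dep)BCP+MSC against BCP+MSC, 5 of 18 were lower against the background of 6.53% and 0 higher (median log2 fold change −0.92), while 29 V members were higher. The scaffold gene Bank1 (log2 fold change −2.13, edgeR adjusted p = 0.0196), the surface gene Cd72 (−2.36, edgeR adjusted p = 0.0118) and the transcription factor gene Spib (−1.71, edgeR adjusted p = 0.0312) also passed the adjusted rule and fell. The list's summed level was 95.2 to 196 CPM in (dep)BCP+MSC and 245 to 325 CPM in BCP+MSC. Skin and hair markers moved in this contrast too, with 4 of 8 higher against the background of 6.65% and summed levels of 27.9 to 507 CPM against 8.98 to 54.4 CPM. Skeletal muscle markers were higher for 2 of 8 genes against the same background, with summed levels of 21732 to 35321 CPM against 312 to 23616 CPM. The part of either list in the V results was not tested.

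In (dep)BCP+MSC+RvE1inj against (dep)BCP+MSC, 10 of the 18 B cell genes were higher, against the background of 2.62%, and 0 lower by the unadjusted rule (median log2 fold change 1.54). Among them were Ms4a1 at 2.47 ± 2.10 against 0.352 ± 0.272 CPM, Pax5, the B cell identity factor gene, at 3.55 ± 2.47 against 0.492 ± 0.701 CPM (0.142 CPM without (dep)BCP+MSC replicate 2), and Cd79b at 14.5 ± 8.03 against 4.56 ± 1.64 CPM (SD, n = 4 each). The edgeR adjusted p was 0.668 for each of them, and the ranges of the groups overlapped for each. Of 16 plasma cell genes, 0 passed in that contrast. In (dep)BCP+MSC against BCP+MSC, 3 of 16 plasma cell genes were lower against the background of 6.53%, and Fkbp11, a secretory pathway gene, fell by the adjusted rule too (log2 fold change −1.69, edgeR adjusted p = 0.0131). The only other plasma cell gene to pass in any contrast was Eaf2, higher in BCP+MSC+RvE1 than in BCP (log2 fold change 1.13, 1 of 16 against the background of 5.36%), and it did not pass without BCP+MSC+RvE1 replicate 4 (0.47). Skin and hair markers were lower for 3 of 8 genes in the injected group against the background of 2.5% (8.75 to 93.2 CPM in sum), and skeletal muscle markers for 1 of 8 (6559 to 25350 CPM in sum). The part of these markers was likewise not tested.

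Other lymphoid lists also had genes that passed in the toxin contrasts. In (dep)BCP+MSC against BCP+MSC, 2 of 9 lymph node and lymphoid stroma genes were higher and 0 lower. One of them, Cxcl13, which encodes a chemokine that attracts B cells, was at 35.1 to 94.4 CPM against 0.183 to 10.8 CPM and rose by the adjusted rule too (log2 fold change 3.98, edgeR adjusted p = 0.0158), and it passed the unadjusted rule without each library in turn. It was also the only 1 of 10 survival and homing genes to pass there. Of 11 T cell genes, 2 were higher, Cd8b1 (1.49) and Trac (1.08), and neither passed without column 5. Thy1, which T cells share with stromal cells, was lower at 24.6 to 90.8 CPM against 114 to 224 CPM and fell by the adjusted rule (−1.56, edgeR adjusted p = 0.00412). The T cell median log2 fold change was 0.88, and the list's summed level was 60.0 to 251 CPM against 169 to 253 CPM. Of 10 macrophage genes 1 passed, Mertk, higher by the adjusted rule (log2 fold change 1.5, edgeR adjusted p = 0.0261). The backgrounds are those given for this contrast, and the part of these genes in the V results was not tested.

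With injected RvE1 against (dep)BCP+MSC, 1 of 11 T cell genes was higher by the unadjusted rule, Cd8b1 (log2 fold change 1.49), with a T cell median of 0.84. Cd8b1 no longer passed in 4 of the 8 fits that each left out a single library. Of 9 lymph node and stroma genes, 1 was higher and 1 lower by the same rule. The backgrounds were 2.62% higher and 2.5% lower. In the contrasts without toxin, coculture with Tregs gave 1 of 11 T cell genes and 1 of 9 lymph node genes above BCP (background 3.77%). That lymph node gene was also above BCP+MSC+RvE1 (background 1.18%). Of 10 macrophage genes, Mertk was lower in BCP+MSC+RvE1 than in BCP (−1.09, background 3.18%). It did not pass without BCP replicate 4 or without BCP+MSC+RvE1 replicate 2. Of 10 survival and homing genes, each against BCP, Il6 was lower in BCP+MSC (background 1.83%) and BCP+MSC+Treg (2.09%). Tnfsf11 was lower in BCP+MSC+RvE1 (3.18%) and BCP+MSC+Treg. None of the 10 germinal centre and class switch genes or the 7 B cell progenitor genes tested passed the unadjusted rule in any of the 8 contrasts.

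Among 14661 genes that are not immunoglobulin genes and averaged 1 CPM or more, the rank order of total V level over the 24 samples was followed most closely by Pou2af1, which encodes the B cell coactivator OCA-B (rho = 0.83). Next came Lax1, a lymphocyte adaptor gene (0.80), Rnase4 (0.75), Susd1 (0.73), Serpinb1a (0.73), Hdac8 (0.72), the chemokine receptor gene Cxcr3 (0.72), Spout1 (0.71), Ctso (0.71) and Bhlha15, the secretory cell factor gene Mist1 (0.70). Jchain and the plasma cell chaperone gene Mzb1 had rho = 0.62 and 0.53 with total V level and 0.94 and 0.93 with total constant gene level. Cd79a and Ms4a1 had rho = 0.39 and 0.36 with total V level. All of these share each library's depth.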

How the data were processed

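RNA of 24 constructs was sequenced with a stranded mRNA library kit. Per the submitters' notes and the study's methods, reads were aligned with HISAT2 2.0.5 and the authors counted them per gene with featureCounts 1.5.2 on exons of GENCODE M13, leaving out reads with several alignments. The deposited table holds whole-number counts that are not normalised, with totals of 8482701 to 144417743 per sample. Identifiers were matched to symbols and transcripts of GENCODE M21 on GRCm38 (50376 of 51138 matched). The member rule, gene lists and tests were chosen with earlier results of these data known.

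Groups came from the sample labels. The 30564 genes that reached 10 counts in total were fitted in 1 model of 6 groups with edgeR 4.0.16 (TMM, robust quasi-likelihood, Benjamini-Hochberg adjustment) in R 4.3.3. DESeq2 1.42.0, RLE scaling, other filters, fits of 2 groups, a replicate block and leaving out single samples served as alternatives, and one alternative without the 2 libraries of lowest V to constant ratio was chosen after seeing the data. P-values measure the spread between animals. Sums, shares and evenness over the members were given no test, and a fold against a group at or under 3 counts per library was taken against that floor, which covers counting error only. For a check of the fit, counts of 30564 genes were simulated from each gene's mean CPM over all 24 samples. Genes with a mean above 1 CPM were then changed in (dep)BCP+MSC+RvE1inj. The fit against (dep)BCP+MSC called 70 of 100 genes changed by 2 and 94 of 100 changed by 3 on the log2 scale. Calls were made at an edgeR adjusted p below 0.05 without a fold limit. No gene at or below 1 CPM was changed, so these rates do not cover members at such levels.

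Named members were the 8 Ighv, 8 Igkv and up to 4 Iglv genes of highest mean CPM, up to 3 per direction and comparison that passed the unadjusted rule without overlap between groups (smallest p first), the leader of each sample, all constant genes, and the 10 other genes closest in rank to total V level. Correlations and transcript comparisons used Python 3.11.15 with scipy 1.17.1, pandas 2.3.3 and biopython 1.88.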

Additional observations from a re-analysis of the deposited data

Results flagged for a closer look

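In 8 of 78 checks (13 measures in 6 groups of 4), 1 sample stood apart from the other 3 of its group, by a gap to the nearest one that exceeded Dixon's critical value for its group size. Chance gives about 1 in 20 for normally distributed values, a rate that need not hold for shares as skewed as these. On the log2 scale, 1 of the 8, the heavy share in (dep)BCP+MSC+RvE1inj, exceeded the same value.

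Ighv11-2 took 9.14% of V counts in BCP+MSC replicate 4, against 0.0521, 0.324 and 1.36% in the others. Igkv8-16 took 3.40% in BCP+MSC+RvE1 replicate 1, against 0.250 to 0.591%. Igkv14-126 took 23.1% in column 4 of (dep)BCP+MSC, against 0.117 to 2.04%.

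In BCP+MSC+Treg, replicate 1 stood apart in 3 measures at once: Igkv8-16 took 23.1% of V counts against 0.0878 to 0.383%, Ighv1-11 took 2.68% against 0.00599 to 0.201%, and Ighg3 made up 13.5% of heavy constant counts against 0.037 to 0.668%.

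In (dep)BCP+MSC+RvE1inj, the heavy share was 27.9% in replicate 2 against 19.9 to 20.3%, and Ighv1-11 took 0.709% in replicate 3 against 0.0492 to 0.136%. Replicate 3 had 423 V counts in all, so the latter value rests on few counts.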

How the results depend on the processing

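The log2 difference of total V level moved by less than the pooled SD between samples under all 124 alternatives, and all 36 alternatives of the locus shares moved by less than 1 SD. Those 36 changed only the minimum count of a member, to 10 or 500. No library was left out for the shares, so their dependence on single libraries was not tested. Without single libraries the log2 difference of total V level ranged from −1.06 to 1.13 for (dep)BCP+MSC+RvE1inj against (dep)BCP+MSC, from −1.23 to 0.24 for BCP+MSC+RvE1 against BCP, from −0.31 to 1.15 for BCP+MSC+RvE1 against BCP+MSC, from −0.16 to 0.90 for BCP+MSC+Treg against BCP+MSC and from −0.84 to 0.63 for BCP+MSC+Treg against BCP+MSC+RvE1, so the sign of these 5 rests on single libraries. It ranged from −1.50 to −0.44 for BCP+MSC against BCP (pooled SD 1.29) and from 0.64 to 1.69 for (dep)BCP+MSC against BCP+MSC (pooled SD 1.25), both past the pooled SD without BCP+MSC replicate 4, and from −1.08 to −0.19 for BCP+MSC+Treg against BCP. Of 268 alternatives for 18 named differences of members, 253 kept direction and side of the unadjusted rule, 15 no longer passed it and 0 changed sign. Differences named by the unadjusted rule were also chosen for having no overlap between their groups. Those named by the adjusted rule had 0 counts in every BCP+MSC sample. Leaving out a library therefore could not turn a sign, so the signs kept in those fits were fixed by the choice and test nothing.

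Members passing the adjusted rule in (dep)BCP+MSC against BCP+MSC numbered 2, and 14 with DESeq2, 4 with RLE scaling, 4 with filterByExpr, 0 with no filter, 0 with only the 2 groups fitted, 1 with the replicate block, 1 without the 2 libraries of lowest V to constant ratio, and 0 to 3 without single libraries (0 without (dep)BCP+MSC replicate 2 and without BCP+MSC replicates 1 or 3, and 1 without (dep)BCP+MSC replicate 1 and without BCP+MSC replicates 2 or 4). With DESeq2, where edgeR gave 0, the count was 3 for BCP+MSC against BCP, 2 for BCP+MSC+RvE1 against BCP, and 1 each for BCP+MSC+Treg against BCP, BCP+MSC+RvE1 against BCP+MSC, BCP+MSC+Treg against BCP+MSC+RvE1 and (dep)BCP+MSC+RvE1inj against (dep)BCP+MSC. The cause was not tested.

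By the unadjusted rule, leaving out single libraries gave 27 to 54 members for BCP+MSC against BCP, 12 to 24 for BCP+MSC+RvE1 against BCP, 18 to 31 for BCP+MSC+Treg against BCP, 19 to 45 for BCP+MSC+RvE1 against BCP+MSC, 11 to 25 for BCP+MSC+Treg against BCP+MSC, 13 to 29 for BCP+MSC+Treg against BCP+MSC+RvE1, 19 to 39 for (dep)BCP+MSC against BCP+MSC and 18 to 53 for (dep)BCP+MSC+RvE1inj against (dep)BCP+MSC. Replicate numbers do not pair the animals: the correlation of deviations over 50 same-numbered pairs ran from −0.66 to 0.62 (median 0.002, 18 pairs over 0.1). With the replicate block, on the samples that carry a number, 10 members passed in place of 33 for (dep)BCP+MSC against BCP+MSC, 22 in place of 38 for (dep)BCP+MSC+RvE1inj against (dep)BCP+MSC, and 10 in place of 26 for BCP+MSC+Treg against BCP+MSC+RvE1, while the other 5 counts stayed within 1.5 times. Without the 2 libraries of lowest V to constant ratio, 49 members in place of 38 passed for injected RvE1 and 41 in place of 33 for BCP+MSC+RvE1 against BCP+MSC.

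The Shannon effective number after thinning averaged 32.8 in BCP, 23.7 in BCP+MSC, 30.6 in BCP+MSC+RvE1, 25.3 in BCP+MSC+Treg, 19.4 in (dep)BCP+MSC and 43.1 in (dep)BCP+MSC+RvE1inj, being another measure. Within the heavy locus the effective number in BCP was 12.4. Within kappa it was 9.64 in BCP and 16.8 in (dep)BCP+MSC+RvE1inj. Without single samples the mean effective number was 7.22 to 10.4 in (dep)BCP+MSC and 24.4 to 32.7 in (dep)BCP+MSC+RvE1inj.

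Libraries of 423 and 846 V counts limit what can be said of rare segments there, reads shared by near-identical segments were not counted, and 4 animals per group with V levels up to 94.9-fold apart limit every comparison.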
